A study of Rattus norvegicus with 12 samples.

Results

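The 10 genes described here mark lymphocytes and the plasma cells that B cells give rise to: Ptprc, Cd3e, Cd3g, Cd4, Cd8a, Gzmb, Prf1, Ms4a1, Cd79b and Jchain. They were chosen by symbol, and every probe set that the platform annotation gives to one of them alone was kept, which gave 16 probe sets of 31042. A probe set is a group of short probes on the array that is read as 1 value. The genes are 10 of 14217 with a probe set of their own. Bulk liver RNA was measured, and there a change in the number of cells of a type and a change in RNA per cell cannot be told apart.

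The arrays compared rat livers of the LEC strain (Long Evans Cinnamon, LEC/Crj), in which a defect of the copper transporter Atp7b leads to copper accumulation, hepatitis and liver tumors, with liver of the related LEA strain (Long Evans Agouti), which served as the control. LEC tumor tissue and adjacent LEC nontumor tissue at 67 weeks of age had 4 arrays each, every one a mix of RNA from 2 of 8 paired specimens. LEC liver at 4, 26 and 39 weeks and LEA liver at 67 weeks had 1 pooled array each, and the sources used here do not say how many rats went into them. The labels name no agent given, tumors arose spontaneously, and all rats are labelled male and specific pathogen-free. The tumors arose in the whole animal, so each tumor pool holds whatever immune, bile duct and connective tissue cells lay in the specimen.

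Values are log2 expression, so 1 unit is a 2-fold difference, and the 12 array medians lay between 7.39 and 7.51. The highest of 27 control probe sets for bacterial RNA lay between 5.52 and 6.22 on the 12 arrays, and a value at or under it on its own array is called within the range of absent RNA. The 10 hepatocyte markers measured had medians of 9.12 to 12.92 on tumor arrays, against 13.55 to 13.74 on nontumor arrays. Sex-linked genes went against the male label on 10 arrays: Xist, the transcript of the inactive X chromosome, was at 5.27 and 5.67 on the 26 and 39 week arrays and between 11.36 and 13.12 on the other 10. Eif2s3y, a Y-linked gene, was at 8.90 and 8.18 on the 26 and 39 week arrays, against 3.65 to 3.81 on the other 10. Age and this split cannot be told apart wherever the 26 and 39 week arrays are set against the 4 week, 67 week nontumor or LEA arrays, while all tumor, nontumor and LEA arrays lie on one side of it. The 26 and 39 week arrays each have their own mean in the fit. Leaving them out therefore could not change any tumor, nontumor or LEA comparison.

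Ptprc encodes CD45, the tyrosine phosphatase on the surface of nearly all leukocytes. T cells recognise antigen through a receptor held on the surface by the CD3 chains, and the co-receptors CD4 and CD8 divide them into helper and cytotoxic cells, although in rats macrophages carry CD4 as well. Cytotoxic T cells and natural killer (NK) cells kill with perforin and granzymes. B cells carry CD79B, a signalling chain of their receptor, and CD20, encoded by Ms4a1, and lose CD20 when they become plasma cells. Plasma cells make the joining chain, Jchain, which links immunoglobulin units into polymeric IgA and IgM, the forms carried into bile and mucosal secretions.

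The start regions of Jchain, Cd3e, Cd3g and Prf1 are shown because Jchain, Cd3e and Cd3g had the clearest differences between tumor and nontumor tissue and Prf1 is the cytotoxic effector gene, of Gzmb and Prf1, whose groups of arrays did not overlap. Each runs from 250 bases before to 50 bases after the start that RefSeq gives the gene in the rat assembly GRCr8, 5′ to 3′ on the gene's strand. Jchain lies at chr14:19822726-19823025 on the + strand, Cd3e at chr8:54211721-54212020 and Cd3g at chr8:54183869-54184168 on the - strand, and Prf1 at chr20:29788790-29789089 on the + strand. Capitals mark matches, on either strand, to the letters searched.
Jchain: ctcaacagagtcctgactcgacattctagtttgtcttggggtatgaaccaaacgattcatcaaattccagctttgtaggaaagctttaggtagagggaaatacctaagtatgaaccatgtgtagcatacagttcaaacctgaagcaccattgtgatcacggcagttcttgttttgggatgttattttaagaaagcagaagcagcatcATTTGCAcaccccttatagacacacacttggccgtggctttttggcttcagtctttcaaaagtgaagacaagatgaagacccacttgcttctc
Cd3e: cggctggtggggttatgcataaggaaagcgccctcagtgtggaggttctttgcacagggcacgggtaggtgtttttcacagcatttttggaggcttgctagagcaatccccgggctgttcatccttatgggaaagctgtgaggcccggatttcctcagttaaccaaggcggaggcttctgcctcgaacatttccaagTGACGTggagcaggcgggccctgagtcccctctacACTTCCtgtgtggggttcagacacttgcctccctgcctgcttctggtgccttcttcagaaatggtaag
Cd3g: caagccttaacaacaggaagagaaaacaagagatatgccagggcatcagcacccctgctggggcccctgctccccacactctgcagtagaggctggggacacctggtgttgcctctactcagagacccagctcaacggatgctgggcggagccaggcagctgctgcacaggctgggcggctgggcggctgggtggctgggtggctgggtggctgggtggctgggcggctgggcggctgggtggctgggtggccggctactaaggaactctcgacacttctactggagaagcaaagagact
Prf1: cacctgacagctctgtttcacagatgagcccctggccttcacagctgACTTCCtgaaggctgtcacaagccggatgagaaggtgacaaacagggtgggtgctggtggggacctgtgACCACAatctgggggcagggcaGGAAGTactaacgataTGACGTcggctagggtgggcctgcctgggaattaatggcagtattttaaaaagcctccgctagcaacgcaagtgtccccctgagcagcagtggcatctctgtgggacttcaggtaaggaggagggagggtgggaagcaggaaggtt
The octamer was searched as ATTTGCAT on both strands, like the others, and 0 of the 7 genes with an entry (Jchain, Cd3e, Cd3g, Cd8a, Gzmb, Prf1 and Ptprc) held it, against 1.78% of all 33469 promoters in the table. Its first 7 bases, ATTTGCA, which any octamer also matches, were found in 1 of the 7 genes and in 4.05% of all promoters. An ETS core, spelled GGAAGT, was found in 3 of the 7 and in 22.6% of all. A RUNX core, spelled TGTGGT, was found in 2 of the 7 and in 17.3% of all. Part of the cyclic AMP response element (CRE), spelled TGACGT, was found in 3 of the 7 and in 7.94% of all. A GATA core, spelled AGATAA, was found in 0 of the 7 and in 11.6% of all. The match in Jchain starts at position -43 relative to its start. Cd3e has the CRE letters at -53 and the reverse complement of the ETS core at -18. Prf1 has the CRE letters at -96, the ETS core at -112, its reverse complement at -203 and the reverse complement of the RUNX core at -134. Cd3g is separated from Cd3e by 16529 bases on chromosome 8 in that annotation, and its window holds none of these letters. These matches describe letters and were not tested for binding.

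In tumors the pan-leukocyte gene Ptprc, the T cell receptor genes Cd3e and Cd3g, the co-receptor gene Cd4 and the plasma cell gene Jchain were higher than in adjacent nontumor tissue, by between 1.98-fold (Cd4) and 6.78-fold (Cd3g) at each gene's brightest probe set. The cytotoxic effector genes Gzmb and Prf1 were called lower, by 0.37 on the log2 scale each. Both lay near the range of absent RNA, whose upper edge was itself lower in tumors. The groups of Gzmb overlapped, and each call was lost when certain single arrays were left out. No difference was called for the brightest probe set of Cd8a or for the B cell surface genes Ms4a1 and Cd79b. Over the 16 probe sets, 8 rose, 3 fell and 5 did not pass an adjusted p-value of 0.05 in limma's test, Benjamini-Hochberg adjusted over all 31042 probe sets. Of all probe sets, 31.7% rose and 32.2% fell, 63.9% in either direction (67.9% of genes at their brightest probe sets), so a call by itself sets no gene apart here. The 4 tumor and 4 nontumor arrays did not overlap for 9 of the 16, against 60.5% of all probe sets. Each of those 9 had the smallest exact two-sided permutation p that 4 against 4 arrays allow, 0.0286. The median difference was 0.58 for the 10 genes, against 0.07 for all 14217 genes. Of all probe sets called, 49.6% were higher in tumors, or 39.5% when each array's median was subtracted.

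**Figure D1:**
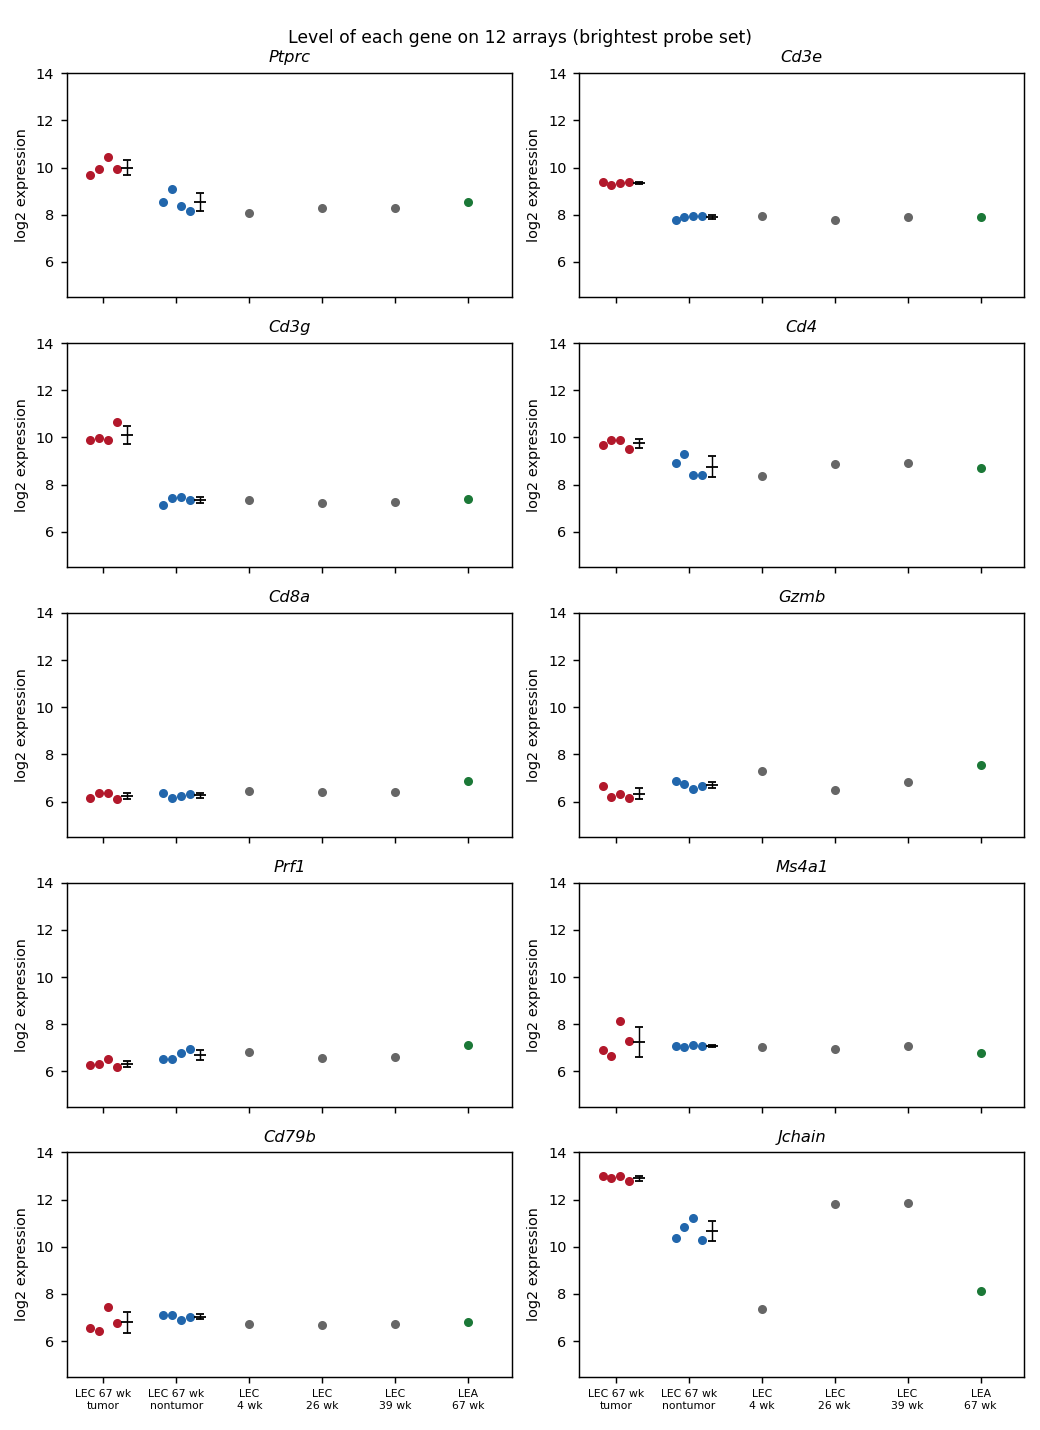
Log2 expression of the 10 genes at their brightest probe sets, with 1 point per array for LEC tumor and LEC nontumor liver at 67 weeks (4 arrays each), LEC liver at 4, 26 and 39 weeks and LEA liver at 67 weeks (1 pooled array each); bars give mean ± SD of the groups of 4. Tumor arrays lie above all others for Ptprc, Cd3e, Cd3g, Cd4 and Jchain, and Jchain is also above its 4 week and LEA levels on the 26 and 39 week and nontumor arrays.

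**Figure D2:**
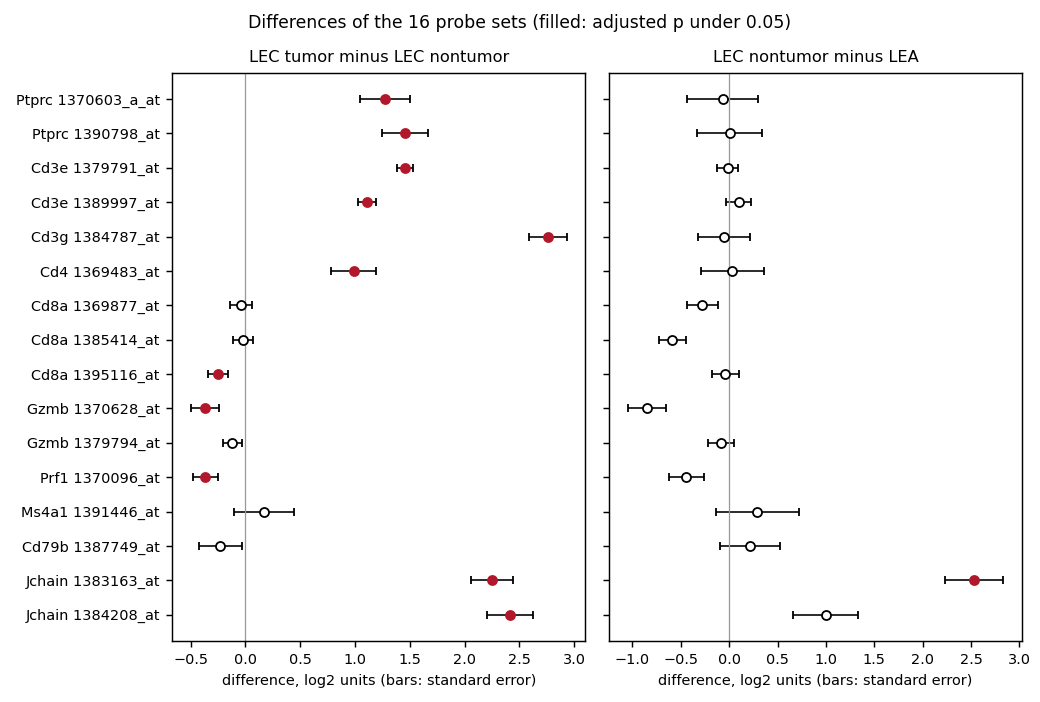
Differences in log2 units for the 16 probe sets, LEC tumor minus LEC nontumor at left and LEC nontumor minus LEA at right, with standard errors; filled points have an adjusted p under 0.05 in limma. At left 8 probe sets lie to the right of 0 and 3 to the left among those called, and at right 1 Jchain probe set is called.

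Ptprc at its brighter probe set, 1390798_at, read 9.70, 9.93, 10.43 and 9.95 on the tumor arrays, against 8.53, 9.08, 8.39 and 8.17 on the nontumor arrays. Every tumor array was above every nontumor array, and nontumor array 2 was the highest of its group. The SD was 0.31 in tumors and 0.39 in nontumor tissue (n = 4 each), and the difference of the means was 1.46 ± 0.21 (SE) or 2.75-fold (limma adjusted p = 4.2e-04). The second probe set, 1370603_a_at, differed by 1.27 ± 0.23 or 2.42-fold (limma adjusted p = 0.00146). The 3 genes with the most similar centred profiles over the 12 arrays, among 13979 other genes, were Cd48, Apbb1ip and Vsir, at root mean square differences of 0.11, 0.14 and 0.15.

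Cd3e encodes the epsilon chain of the CD3 complex. Its brighter probe set, 1379791_at, read 9.38, 9.27, 9.35 and 9.39 in tumors, against 7.76, 7.92, 7.95 and 7.94 in nontumor tissue. The groups were far apart and each spanned little, with a difference of 1.45 ± 0.07 (SE) or 2.74-fold (limma adjusted p = 1.7e-06). The 4, 26 and 39 week and LEA arrays read 7.95, 7.78, 7.91 and 7.91, close to the nontumor arrays and below all tumor arrays. The dimmer probe set, 1389997_at, was within the range of absent RNA on all 4 nontumor arrays and between 6.30 and 6.49 on tumor arrays. Against that range tumors were at least 1.35-fold higher, and the fitted difference was 1.11 ± 0.08 (limma adjusted p = 1e-05).

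Cd3g encodes the gamma chain of the same complex and had the largest difference of the 10 genes. It read 9.89, 9.98, 9.88 and 10.64 in tumors, against 7.14, 7.41, 7.46 and 7.35 in nontumor tissue. Tumor array 4 stood above the other 3, and no array of either group came near the other group. The difference was 2.76 ± 0.17 (SE) or 6.78-fold (limma adjusted p = 4.7e-06). In LEC liver at 4, 26 and 39 weeks the gene read 7.34, 7.20 and 7.25, and in LEA liver 7.39. Its closest profiles were those of Mtmr11, Arhgap28 and Sfxn3, at root mean square differences of 0.18, 0.18 and 0.19 on a span of 3.50.

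Cd4 read 9.67, 9.89, 9.91 and 9.51 in tumors, against 8.92, 9.31, 8.39 and 8.40 in nontumor tissue. The groups did not overlap, though nontumor array 2 came within 0.20 of the lowest tumor array. The difference was 0.99 ± 0.21 (SE) or 1.98-fold (limma adjusted p = 0.00304). Since rat macrophages also carry CD4, the macrophage markers are given beside it. Of 14 measured, 7 rose and 3 fell in tumors, while of all genes 38.8% rose and 29.2% fell. The median level of these markers was 10.56 to 10.88 on tumor arrays against 10.62 to 11.25 on nontumor arrays. Clec4f and Cd5l, genes of resident liver macrophages in rodents, fell by 3.85 and fell by 4.82 in tumors on the log2 scale (adjusted p = 1.3e-05 and 1.3e-04 in limma), with 1 tumor array of Cd5l within the range of absent RNA, while Lyz2, encoding lysozyme of myeloid cells, rose by 2.05 (limma adjusted p = 5.8e-06). The part of macrophages in the Cd4 difference was not tested.

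Cd8a encodes the alpha chain of CD8. At its brightest probe set, 1385414_at, it read 6.16, 6.35, 6.36 and 6.11 in tumors, against 6.37, 6.14, 6.24 and 6.31 in nontumor tissue. The groups overlapped throughout, and the difference was -0.02 with a 95% interval of -0.22 to 0.18 (limma adjusted p = 0.834). A second probe set, 1369877_at, differed by -0.04 ± 0.10 (limma adjusted p = 0.720), with 1 nontumor array within the range of absent RNA. The third, 1395116_at, was called lower by 0.25 on the log2 scale (limma adjusted p = 0.0325), but its groups overlapped (exact permutation p = 0.0571). That call was lost without tumor array 1, 2 or 4 or nontumor array 1, 3 or 4 (difference of -0.26 to -0.21, adjusted p of 0.0525 to 0.0917) and after a second quantile normalization (adjusted p = 0.126).

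Gzmb encodes granzyme B. Its brighter probe set, 1370628_at, read 6.66, 6.19, 6.30 and 6.15 in tumors, against 6.86, 6.75, 6.53 and 6.65 in nontumor tissue. Tumor array 1 lay among the nontumor arrays, so the groups overlapped (exact permutation p = 0.0857), and the difference was -0.37 ± 0.13 (SE; limma adjusted p = 0.0279). The call was lost without tumor array 2, 3 or 4 or nontumor array 1 or 2 (difference of -0.36 to -0.31, adjusted p of 0.0548 to 0.0766) and after quantile normalization (adjusted p = 0.0690). The second probe set, 1379794_at, was within the range of absent RNA on all 12 arrays. A probe set shared by Gzmb and an unnamed locus, not counted among the 16, read 4.15 to 4.22 in tumors and 4.59 to 5.28 in nontumor tissue, also within that range.

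Prf1 encodes perforin, the pore-forming protein through which granzymes enter target cells. It read 6.29, 6.32, 6.50 and 6.20 in tumors, against 6.54, 6.51, 6.77 and 6.96 in nontumor tissue. All tumor arrays were below all nontumor arrays, with tumor array 3 and nontumor array 2 nearly level. The difference was -0.37 ± 0.12 (SE; limma adjusted p = 0.0215), and the adjusted p was 0.0534 without tumor array 1 (difference -0.35), 0.0578 without tumor array 4 (-0.32) and 0.0543 without nontumor array 3 (-0.34). Levels of Gzmb and Prf1 in both tissues lay near the upper edge of the range of absent RNA, which was 5.52 to 5.67 on tumor arrays and 5.88 to 6.01 on nontumor arrays and so was itself lower in tumors. The part of that offset in the small decreases was not tested.

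Ms4a1 read 6.90, 6.67, 8.14 and 7.30 in tumors, against 7.08, 7.02, 7.13 and 7.09 in nontumor tissue. Tumor array 3 stood alone at the top, 2 tumor arrays lay below all nontumor arrays, and the difference was 0.17 with a 95% interval of -0.45 to 0.79 (limma adjusted p = 0.606). Without tumor array 3 it was -0.13 (limma adjusted p = 0.450). Cd79b had the same order, at 6.56, 6.45, 7.45 and 6.79 in tumors, against 7.12, 7.10, 6.91 and 7.04 in nontumor tissue. Tumor array 3 was again the highest and the other 3 tumor arrays lay below all nontumor arrays. The difference was -0.23 with a 95% interval of -0.68 to 0.21 (limma adjusted p = 0.323), and without tumor array 3 it was -0.44 and passed the threshold (limma adjusted p = 0.00669).

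Whether the number of plasma cells sets the level of Jchain, the plasma cell gene of the 10, was not tested. Its brighter probe set, 1383163_at, read 13.00, 12.90, 12.99 and 12.77 in tumors, against 10.35, 10.83, 11.21 and 10.29 in nontumor tissue. The tumor arrays lay close together, well above the more scattered nontumor arrays. The means were 12.92 ± 0.11 in tumors and 10.67 ± 0.43 in nontumor tissue (SD, n = 4 each), a difference of 2.25 ± 0.19 (SE) or 4.74-fold (limma adjusted p = 2.3e-05). The second probe set, 1384208_at, differed by 2.42 ± 0.21 or 5.34-fold (limma adjusted p = 2.5e-05). The closest profiles over the 12 arrays were those of Dmbt1, Cryab and Serpinb1a, at root mean square differences of 0.48, 0.54 and 0.67 on a span of 5.62.

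Jchain was also the one gene of the 10 called between LEC nontumor liver and LEA liver at 67 weeks. The brighter probe set was at 10.67 ± 0.43 in LEC nontumor tissue (SD, n = 4), against 8.14 on the LEA array, and every nontumor array was above it. The difference was 2.53 ± 0.30 (SE) or 5.77-fold (limma adjusted p = 0.00988), in a fit that takes the single LEA array to vary like the replicated groups. With only the groups compared in the fit it missed the threshold (limma adjusted p = 0.151). The second probe set was at 7.49, 8.23, 8.23 and 7.88 in nontumor tissue, against 6.96 in LEA liver, and its 1.99-fold difference did not pass (limma adjusted p = 0.277). Of the 16 probe sets 1 rose and 0 fell, against 0.19% and 0.354% of all probe sets. At an unadjusted p under 0.05, 2 were higher (both of Jchain) and 3 lower (1 each of Cd8a, Gzmb and Prf1), against 4.46% and 7.69% of all probe sets. Gzmb was 0.85 ± 0.20 lower on the log2 scale in LEC nontumor than in LEA liver, which read 7.55, the highest value of the 12 arrays (limma adjusted p = 0.125). Cd8a at its brightest probe set was 0.59 ± 0.14 lower, again with the highest value on the LEA array, 6.85 (limma adjusted p = 0.130). Cd3e, Cd3g, Cd4 and Ptprc differed by between -0.06 and 0.03 at their brightest probe sets.

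**Figure D3:**
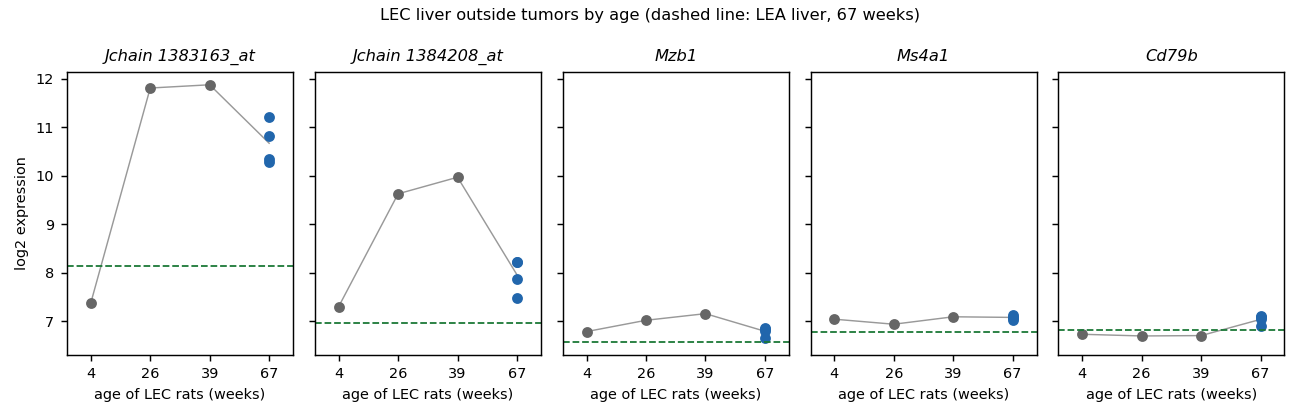
Log2 expression in LEC liver outside tumors at 4, 26, 39 and 67 weeks for both Jchain probe sets, Mzb1, Ms4a1 and Cd79b; grey points are single pooled arrays, blue points the 4 nontumor arrays, the grey line joins the means and the dashed line is the LEA array at 67 weeks. Jchain is within 1 unit of its LEA level at 4 weeks and above it at every later age, while Mzb1, Ms4a1 and Cd79b span less than 1 unit.

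Across ages in LEC liver, the brighter Jchain probe set read 7.38 at 4 weeks, 11.81 at 26 weeks, 11.87 at 39 weeks and 10.67 ± 0.43 in nontumor tissue at 67 weeks (SD, n = 4). The 26 and 39 week arrays were above all 4 nontumor arrays, and the 4 week array was below the LEA array by 0.76. The fold over 4 weeks was 21.5 at 26 weeks and 22.6 at 39 weeks, with 1 array at each age and no test. The second probe set read 7.30, 9.63 and 9.97 at 4, 26 and 39 weeks, or 5.01-fold and 6.35-fold over 4 weeks. These were the only 2 of the 16 probe sets past 2-fold in either comparison, and 0 were lower past it. Of all probe sets 1.73% were higher and 0.541% lower at 26 weeks (2.27% in all), and 1.74% were higher and 0.499% lower at 39 weeks (2.24% in all). The brightest probe sets of the other 9 genes stayed within 1 unit across the 4 to 39 week arrays. Gzmb was the most variable of them, at 7.30, 6.49 and 6.82. The plasma cell list described below, which leaves out Jchain, had 0 of 8 measured genes past 2-fold in either direction at 26 or 39 weeks. Mzb1 of that list read 6.79, 7.02 and 7.16 at 4, 26 and 39 weeks. The measured genes of that list include no immunoglobulin gene. Of the immunoglobulin probe sets given under other observations, Ighl2 read 8.43, 10.54 and 10.58 at these ages. Iglc1 read 7.22, 8.09 and 8.52, and Ighvl1 read 7.03, 7.09 and 6.84.

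Other genes of each lineage were counted from lists, by the brightest probe set of each gene. Of all genes 38.8% rose and 29.2% fell in tumors at the same threshold. Of 25 measured T cell genes 13 rose and 3 fell, with a median difference of 0.31. The rises included Tcf7, a transcription factor of T cells, by 2.22 ± 0.17, Cd3d, the delta chain of CD3, by 1.64 ± 0.11, and Lat, an adaptor of receptor signalling, by 1.35 ± 0.11 (limma adjusted p of 1.4e-05, 7.7e-06 and 1.5e-05). Tcf7 was within the range of absent RNA on 2 of 4 nontumor arrays. Cd8b, the beta chain of CD8, fell by 0.61 on the log2 scale and Gata3, a transcription factor of T cells, by 0.45 (limma adjusted p of 3.4e-04 and 0.00207). Cd8b read 5.79 to 6.10 on tumor arrays, near the upper edge of the range of absent RNA. That edge was lower in tumors, and its part in the decrease of Cd8b was not tested. The third call of a decrease was Ctla4, an inhibitory receptor gene (limma adjusted p = 0.00874), but it was within the range of absent RNA on 3 tumor and 4 nontumor arrays and no fold is given.

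Of 19 measured cytotoxic and NK cell genes 3 rose and 10 fell, with a median difference of -0.27. The list's median level was 6.20 to 6.40 on tumor arrays against 6.68 to 7.08 on nontumor arrays. The upper edge of the range of absent RNA was also lower in tumors, at 5.52 to 5.67 against 5.88 to 6.01. Of the 19 genes 3 were within that range on all 12 arrays. The part of that offset in the decreases of this list was not tested. Klrg1, an inhibitory receptor of NK and effector T cells, fell by 1.38 on the log2 scale and Gzma, granzyme A, by 1.13, and Ncr3, an activating NK receptor, by 0.75 (limma adjusted p of 1.9e-05, 1.8e-04 and 8.8e-04). Cst7, encoding the protease inhibitor cystatin F, rose by 2.01 ± 0.17 (limma adjusted p = 1.9e-05). Klrd1, encoding CD94, was called higher (limma adjusted p = 0.0218). However, 1 tumor and all 4 nontumor arrays were within the range of absent RNA, so neither a fold nor a lower bound is given. Cd244l1 was called higher (limma adjusted p = 0.00805) but was within that range on all 12 arrays, so no fold is given.

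Of 15 measured B cell genes 8 rose and 3 fell, with a median of 0.39. The 3 largest rises were in Cd24 by 4.23 ± 0.29, Blnk by 3.12 ± 0.12 and Cd74 by 2.25 ± 0.19 (limma adjusted p of 8.5e-06, 8.2e-07 and 2.2e-05). Cd24 is also a gene of bile duct and progenitor epithelium, and Cd74, the invariant chain of class II molecules, is made by all antigen-presenting cells. Cd22, an inhibitory co-receptor of B cells, fell by 0.95 on the log2 scale, Blk, a kinase of the B cell receptor, by 0.93 and Pou2f2, an octamer-binding factor, by 0.54 (limma adjusted p of 7.7e-05, 0.0013 and 0.00545). Blk read 5.68 to 5.99 on tumor arrays, near the upper edge of the range of absent RNA. That edge was lower in tumors, and its part in the decrease of Blk was not tested. All 6 bile duct markers measured rose in tumors, with a median level of 11.49 to 11.90 against 7.46 to 8.38 in nontumor tissue, and their part in the B cell list was not tested.

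Of 8 measured plasma cell genes 3 rose and 2 fell, with a median of 0.05. Mzb1, a chaperone of immunoglobulin assembly, read 8.60, 8.19, 8.69 and 7.92 in tumors, against 6.81, 6.66, 6.86 and 6.85 in nontumor tissue. No arrays overlapped, and the difference was 1.55 ± 0.16 (limma adjusted p = 6.8e-05). Txndc5, a protein disulfide isomerase, rose by 0.65 ± 0.12 and Tnfrsf17, the plasma cell receptor BCMA, by 0.44 ± 0.09 (limma adjusted p of 0.00153 and 0.0020). Pigr, which carries J chain-linked immunoglobulin across bile-lining cells and hepatocytes in rats, fell by 0.63 on the log2 scale, and Sec11c, of the signal peptidase, by 0.45 (limma adjusted p of 0.00471 and 0.00589).

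Of 23 measured genes that lymphoid and myeloid cells share, 20 rose and 1 fell, with a median of 1.15. Coro1a, an actin regulator of leukocytes, rose by 2.47 ± 0.12 (limma adjusted p = 1.8e-06). Evi2a, a membrane protein gene, and Ptpn22, a phosphatase of lymphocyte signalling, were within the range of absent RNA on all 4 nontumor arrays. Against that range Evi2a was at least 6.37-fold higher in tumors and Ptpn22 at least 1.40-fold higher (limma adjusted p of 1.4e-06 and 2.4e-05). Cd52, a glycoprotein of lymphocytes, fell by 1.82 on the log2 scale (limma adjusted p = 0.00966), with tumor arrays between 5.51 and 5.80, 2 of them within the range of absent RNA, and nontumor arrays at 6.53, 6.42, 8.66 and 8.24. Over the 5 lists 47 genes rose and 19 fell; both tissues were within that range for 1 of the rises and 1 of the falls, and 1 tissue was for 5 and 1 more. Mast cell markers moved as well, with 8 of 9 higher and 1 lower and a median level of 7.68 to 8.17 on tumor arrays against 6.33 to 6.52 on nontumor arrays. Of 8 neutrophil markers 4 rose and 1 fell. The part of each of these cell types in the leukocyte genes was not tested.

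**Figure D4:**
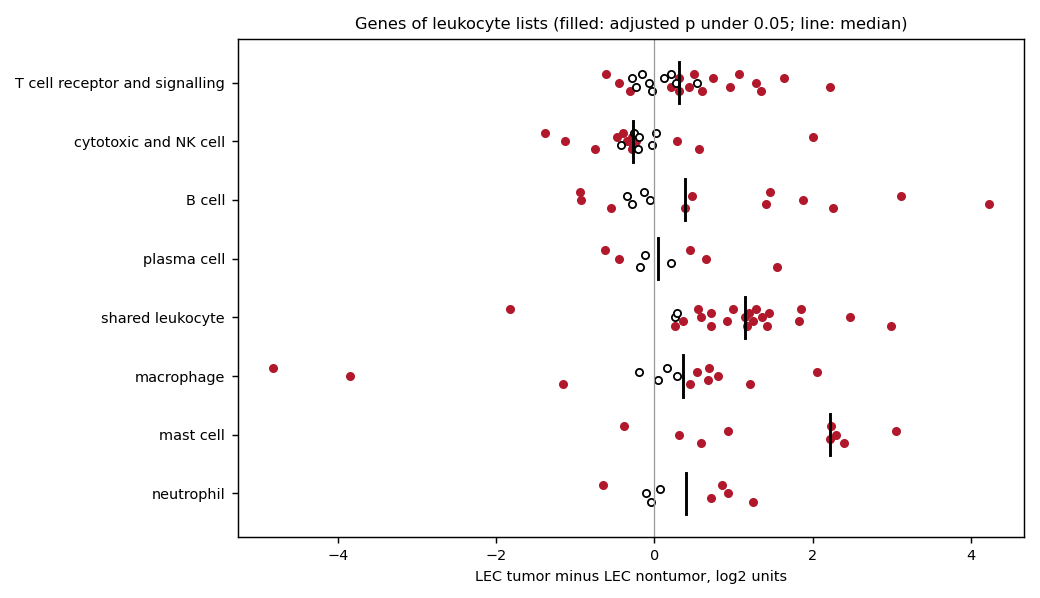
Difference in log2 units, LEC tumor minus LEC nontumor, for each measured gene of 5 lymphocyte and leukocyte lists and of the macrophage, mast cell and neutrophil marker lists; filled points have an adjusted p under 0.05 in limma and the black line is the list's median. Differences are as fitted, also for genes within the range of absent RNA, whose upper edge was itself lower on tumor arrays. Shared leukocyte and mast cell genes lie mostly to the right of 0, with medians of 1.15 and 2.22, and cytotoxic genes mostly to the left, with a median of -0.27.

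Between LEC nontumor and LEA liver, 0 of the 90 genes of the 5 lymphocyte and leukocyte lists passed limma's adjusted threshold, against 0.563% of all genes (0.232% higher and 0.331% lower). At an unadjusted p under 0.05, 2 were higher and 5 lower, against 5.12% and 7.24% of all genes, so neither count stands above that share. Their median difference was -0.02, against -0.03 over all genes. The comparison rests on 1 LEA array, so differences could have been missed, also some of more than 1 unit. Cd24 was 2.13 higher and Cd52 1.13 higher on the log2 scale in LEC nontumor liver, and neither passed. The largest decrease, that of Klrg1, was 0.83. Leaving out nontumor array 1 gave 1 gene called higher.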

How the data were processed

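Biotin-labelled RNA from 3 µg of total RNA per sample was hybridized to 12 Affymetrix Rat Expression 230 2.0 arrays, per the labels' protocols. The authors deposited log2 expression, for which the submitters' processing notes name RMA and R 2.6.1. In RMA, background correction is followed by quantile normalization between arrays and a robust summary of each probe set. Whether all 12 arrays were normalized together is not given in the sources used here.

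Groups came from the sample titles. Probe sets were named through the platform annotation and RefSeq; 57 control probe sets were left out, 20826 of the other 31042 name 1 gene, 436 several and 9780 none listed. limma 3.58.1 in R 4.3.3 fitted 1 mean for each of 6 groups to all 12 arrays (6 residual and 2.84 prior degrees of freedom), and p-values were Benjamini-Hochberg adjusted over 31042 probe sets. The replicate arrays are pools, so p-values measure the spread between pools, and the number of arrays limits the precision. Single arrays by age were compared by 2-fold only.

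The members and gene lists were chosen with earlier results of these data known. Named were all 10 members, up to 3 called genes a list and direction by size, up to 3 markers of other cell types, and the 3 closest profiles of members spanning at least 2 units. Other normalizations, a filter on dim probe sets, other priors, fewer groups, a replicate block and each array left out were tried. The fit was tested on simulated data with 31042 probe sets, of which 200 were changed. There tumor against nontumor recovered 43 of 50 changes of 1 unit and 18 of 50 of 0.5, with 7 false among 167 calls. LEC nontumor against LEA, with 1 LEA array, recovered 27 of 50 and 4 of 50. In the data 63.9% of probe sets were called between tumor and nontumor tissue, so these shares need not carry over.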

Additional observations from a re-analysis of the deposited data

Results flagged for a closer look

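In groups of 4 arrays, 1 array stood apart from the other 3 by Dixon's test in 4 of the 86 groups tested, where chance alone gives about 1 in 20. Cd3e at its brighter probe set was at 7.76 on nontumor array 1, with the next array at 7.92. Cd3g was at 10.64 on tumor array 4, with the next at 9.98. Cd244l1 was at 4.98 on nontumor array 3, with the next at 5.11, both within the range of absent RNA. Gzma was at 6.11 on tumor array 3, with the next at 5.74.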

How the results depend on the processing

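The differences of Ptprc, Cd3e, Cd3g, Cd4 and Jchain between tumor and nontumor tissue kept their direction and stayed past the threshold under every alternative run for them. Of the recomputed member differences between tumor and nontumor, 206 kept direction and call, 17 lost the call, 1 gained it and 7 changed sign. Between nontumor and LEA liver these were 205, 1, 0 and 9. Those kept include runs that could not change a result. For both comparisons, leaving out the LEC arrays that matched the male label gave the main values again. So did fitting only the groups compared, for tumor against nontumor. Leaving out a tumor array could not change the difference from LEA liver, only its adjusted p. The filter on dim probe sets, the other priors and the replicate block likewise left the differences as they were. The filter on dim probe sets took out the 3 member probe sets called lower, so its count of 0 lower holds no lost call. With that filter 28 list genes were higher and 5 lower in place of 47 and 19. Genes it took out were not tested and count as not called. Quantile normalization gave 1 member lower in place of 3, and leaving out 1 array 0 to 3. Without nontumor array 1, 1 list gene was higher than in LEA liver in place of 0 (0 to 1 over the arrays left out). With only the groups compared, 0 members were higher than in LEA liver in place of 1. At 1.5-fold in place of 2-fold, 1 member probe set was lower at 26 than at 4 weeks.

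Sign changes were in small differences that did not pass, and the cause was not tested. After quantile normalization Cd8a differed between tumor and nontumor by 0.075 (1369877_at) and 0.071 (1385414_at), and Cd3e between nontumor and LEA by 0.016. Leaving out 1 array, the tumor difference ranged from -0.13 to 0.36 for Ms4a1 at 1391446_at, -0.10 to 0.00628 for Cd8a at 1369877_at and -0.063 to 0.022 for Cd8a at 1385414_at. The difference of nontumor from LEA liver ranged from -0.034 to 0.027 for Cd3e at 1379791_at, -0.095 to 0.011 for Cd3g at 1384787_at, -0.15 to 0.15 for Cd4 at 1369483_at, -0.080 to 0.00863 for Cd8a at 1395116_at, -0.23 to 0.088 for Ptprc at 1370603_a_at and -0.17 to 0.13 for Ptprc at 1390798_at. Subtracting array medians moved the median of all probe sets, tumor minus nontumor, to -0.14 in place of -0.04.

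Same-numbered tumor and nontumor arrays deviated together with correlations of 0.05, 0.14, -0.08 and 0.14, and different-numbered ones with -0.14 to 0.11. These values do not settle whether the numbers mark pairs, so the main fit does not pair them. With the number as a replicate block, 8 members were higher and 2 lower in tumors, and 45 list genes higher and 16 lower; Cd8a at 1395116_at missed the threshold (limma adjusted p = 0.0656). Signal over background limits Cd8a, Gzmb and Prf1, which lie close to the range of absent RNA.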

Other observations

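Immunoglobulin probe sets, looked up after their values were seen, are given beside Jchain because the J chain joins immunoglobulin units. Ighl2 was at 10.83 ± 0.26 in tumors and 9.62 ± 0.24 in nontumor tissue (SD, n = 4 each), a difference of 1.21 ± 0.16 (SE; limma adjusted p = 2.3e-04). It read 8.43, 10.54 and 10.58 in LEC liver at 4, 26 and 39 weeks. Nontumor tissue was 1.54 ± 0.25 higher than LEA liver, which read 8.08 (limma adjusted p = 0.0388). Iglc1, a light chain constant gene, was at 8.98 ± 0.16 in tumors and 7.97 ± 0.09 in nontumor tissue, a difference of 1.02 ± 0.09 (limma adjusted p = 3.6e-05). It read 7.22, 8.09 and 8.52 at 4, 26 and 39 weeks, and nontumor tissue differed from LEA liver by 0.49 ± 0.15 without passing (limma adjusted p = 0.235). Ighvl1 read 7.82, 7.70, 9.44 and 8.83 in tumors and between 7.58 and 7.97 in nontumor tissue, with a difference of 0.69 ± 0.36 (limma adjusted p = 0.122). It read 7.03, 7.09 and 6.84 at 4, 26 and 39 weeks, and nontumor tissue differed from LEA liver by 0.49 ± 0.57 (limma adjusted p = 0.774). Tumor array 3 was the highest of the 12 for Ighvl1, Ms4a1 and Cd79b.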
